A study of Mus musculus with 12 samples.

Results

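Digestion and uptake of dietary sugar in the mouse intestine were followed through 9 genes, chosen by name for their roles and not by a threshold on their values, out of 55487 genes in the count table. The genes are the brush-border glycosidases Sis, Mgam, Lct and Treh, the sugar transporters Slc5a1, Slc2a5 and Slc2a2, and the enzymes Khk and Fbp1 of fructose use and glucose synthesis, and all 9 passed the filter on low counts. RNA was sequenced from 12 libraries of C57BL/6 mice of either sex aged 6 to 10 weeks, 3 in each of 4 groups: crypts freshly isolated from the small intestine (SI tissue) or large intestine (LI tissue), and intestine-derived monolayers grown from such crypts for 24 h (SI monolayers and LI monolayers). No drug under study was given to any of the 4 groups. The monolayer media carried growth factors, which tissue did not receive, and the seeding medium also held inhibitors. By the methods, 1 of these inhibitors was also in the medium in which the large intestine was digested. Within a group each tissue library came from its own mouse and each monolayer library from pooled wells, so that the spread between monolayer libraries need not be a spread between animals. The methods describe SI and LI crypts taken from the same animals, but the labels do not tie libraries of the regions to 1 mouse. By the methods, SI crypts came from the jejunum, and only the large intestine was digested with enzymes before its crypts were released. Region and digestion therefore cannot be told apart.

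Starch, sucrose, lactose and trehalose are cut to hexoses by enzymes anchored in the apical membrane of enterocytes, the absorptive cells of the small intestine. Glucose and galactose then enter with sodium through SGLT1 (Slc5a1) and fructose through GLUT5 (Slc2a5), and hexoses leave to the blood mainly through GLUT2 (Slc2a2). Inside the cell ketohexokinase (Khk) phosphorylates fructose, which is then split to trioses. The trioses can be used for glucose synthesis, a step of which is run by the fructose bisphosphatase encoded by Fbp1. This set of genes belongs to mature enterocytes of the villus and is known to be much lower in the colon.

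All 9 genes are protein coding, and positions are those of GRCm38. Sis (ENSMUSG00000027790.14), which encodes sucrase-isomaltase, lies at chr3:72888557-72967863 on the minus strand, and Mgam (ENSMUSG00000068587.10), for maltase-glucoamylase, at chr6:40628831-40769123 on the plus strand. Lct (ENSMUSG00000026354.8), for lactase, lies at chr1:128284756-128328318 on the minus strand, and Treh (ENSMUSG00000032098.13), for trehalase, at chr9:44673233-44686305 on the plus strand. Slc5a1 (ENSMUSG00000011034.6) lies at chr5:33104219-33162870, Slc2a5 (ENSMUSG00000028976.10) at chr4:150119283-150144169 and Slc2a2 (ENSMUSG00000027690.13) at chr3:28697903-28731359, all on the plus strand. Khk (ENSMUSG00000029162.15) lies at chr5:30921431-30931248 on the plus strand, and Fbp1 (ENSMUSG00000069805.10) at chr13:62864753-62888282 on the minus strand. The exons of Treh share 2 bases with those of Phldb1 on the opposite strand, and the sources used here do not state whether reads were counted by strand.

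The promoters of the 4 glycosidases are shown because these enzymes work side by side on the same membrane and yet gave the most unequal values of the set. Each sequence holds the 250 bases before the start site in the RefSeq annotation of GRCm38.p6, read 5′ to 3′ on the strand of the gene, at chr3:72967864-72968113 for Sis, chr6:40628581-40628830 for Mgam, chr1:128328319-128328568 for Lct and chr9:44672983-44673232 for Treh. Capitals mark matches, on either strand, to the letters of 6 short motifs. For intestinal factors these were GTTAAT, found in sites of HNF1, CAAAGT, found in sites of HNF4, TTTAT, the core of CDX sites, and the zinc-finger motif GATAAG. General elements were searched as well, namely the E box CACGTG and the TATA box, written here as TATAAA.
Sis: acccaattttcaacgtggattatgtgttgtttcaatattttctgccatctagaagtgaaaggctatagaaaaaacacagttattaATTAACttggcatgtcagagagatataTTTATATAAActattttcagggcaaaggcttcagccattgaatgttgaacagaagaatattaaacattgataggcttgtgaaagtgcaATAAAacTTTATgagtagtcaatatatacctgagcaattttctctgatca
Mgam: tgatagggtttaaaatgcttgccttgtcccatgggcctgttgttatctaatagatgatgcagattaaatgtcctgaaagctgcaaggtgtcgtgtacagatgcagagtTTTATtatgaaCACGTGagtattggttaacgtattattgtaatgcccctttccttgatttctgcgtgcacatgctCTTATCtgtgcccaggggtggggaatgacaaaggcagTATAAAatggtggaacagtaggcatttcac
Lct: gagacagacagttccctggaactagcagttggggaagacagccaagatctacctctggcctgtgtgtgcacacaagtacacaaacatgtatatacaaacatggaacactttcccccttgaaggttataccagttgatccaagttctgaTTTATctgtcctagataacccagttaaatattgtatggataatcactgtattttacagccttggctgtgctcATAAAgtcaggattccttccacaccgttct
Treh: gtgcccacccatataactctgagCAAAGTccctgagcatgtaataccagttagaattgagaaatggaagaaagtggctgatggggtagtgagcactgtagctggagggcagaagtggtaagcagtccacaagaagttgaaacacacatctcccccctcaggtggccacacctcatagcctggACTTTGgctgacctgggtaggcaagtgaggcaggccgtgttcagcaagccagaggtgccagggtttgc

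The Sis window held 1 HNF1 match, 4 CDX matches and 2 TATA matches, where the reverse complement of TATAAA contains TTTAT, so that some of these overlap. The Mgam window held 2 CDX matches and 1 match each of the zinc-finger motif, the TATA box and the E box, with the TATA box beginning 30 bases before the start. The Lct window held 2 CDX matches, which began 102 and 30 bases before the start, and the Treh window held 2 HNF4 matches and no other. Among 32851 RefSeq promoter windows of the same length, GTTAAT was found in 6.43%, TTTAT in 37.3% and GATAAG in 6.55%, and in 2, 3 and 2 of the 9 genes. TATAAA was found in 12.4% of windows, CAAAGT in 12.6% and CACGTG in 6.02%, and in 2, 2 and 3 of the 9 genes. These are matches of letters in short windows and not measured sites.

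Library sizes ran from 59016196 to 76216530 counts, so that 3 counts corresponded to between 0.0394 and 0.0508 CPM (counts scaled to library size). In SI tissue the 9 genes together took 0.745% to 1.09% of all counts, and 0.303% to 0.331% after culture. In LI tissue they took 0.0625% to 0.0693%, and 0.0114% to 0.0141% after culture. All values below are normalized counts, which are counts divided by the authors' DESeq2 size factor of the library, unless a level is given per kilobase of exon for comparison between genes. A gene was called higher or lower when its adjusted p-value was under 0.05 (edgeR quasi-likelihood test, Benjamini-Hochberg adjustment over all 19581 tested genes) and its log2 fold change was 1 or more in size.

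The labelled regions were set beside marker lists, which were chosen with earlier results of these data known and so are no independent check. In SI tissue 8 of 8 large-intestine region markers, among them Hoxb13, were lower than in LI tissue, and 7 of 8 small-intestine region markers were higher. In SI monolayers 6 of 8 and 7 of 8 were lower and higher than in LI monolayers, in the same order. The summed level of the 12 enterocyte markers was 1042060 to 1598680 in SI tissue and 411196 to 414464 once cultured. For LI the sums were 80829 to 105125 and 82497 to 88890. Of those 12, 8 were lower in SI monolayers than in SI tissue. The immune list, led by Cd74, summed to between 40291 and 98306 in SI tissue and between 9747 and 10320 in SI monolayers, with 7 of 9 genes lower. For LI the sums were 84309 to 114496 and 496 to 666, with 8 of 9 genes lower. Other lists were lower in LI monolayers too. The colonocyte markers summed to between 473265 and 604059 before culture and between 85012 and 87711 after it, with 9 of 10 genes lower. The goblet markers summed to between 1196630 and 1495090 and then between 109892 and 122150, with 8 of 8 lower, and of the 8 large-intestine region markers 6 were lower. Not all lists fell. The enteroendocrine markers summed to between 13005 and 16039 in LI tissue and between 56928 and 64114 in LI monolayers, with 4 of 8 genes higher and 1 lower. For SI their sums were 22047 to 36463 and 46712 to 49412, with 3 higher and 1 lower. The sums of the proliferating markers were also higher after culture in both regions, with 2 of 10 genes called higher in LI and 0 in SI. The part of these lists in the changes of the sugar genes was not tested. SI tissue library 3 held the most Paneth cell RNA: each of the 8 Paneth markers was higher there than in libraries 1 and 2, and the list summed to 379040 in the lowest and 1874180 in the highest SI tissue library. The share of mitochondrial counts was 4.56% to 9.16% in SI tissue and 0.472% to 0.559% in SI monolayers. It was also lower in LI once cultured, at 0.704% to 0.750% after 2.25% to 2.59%.

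**Figure D1:**
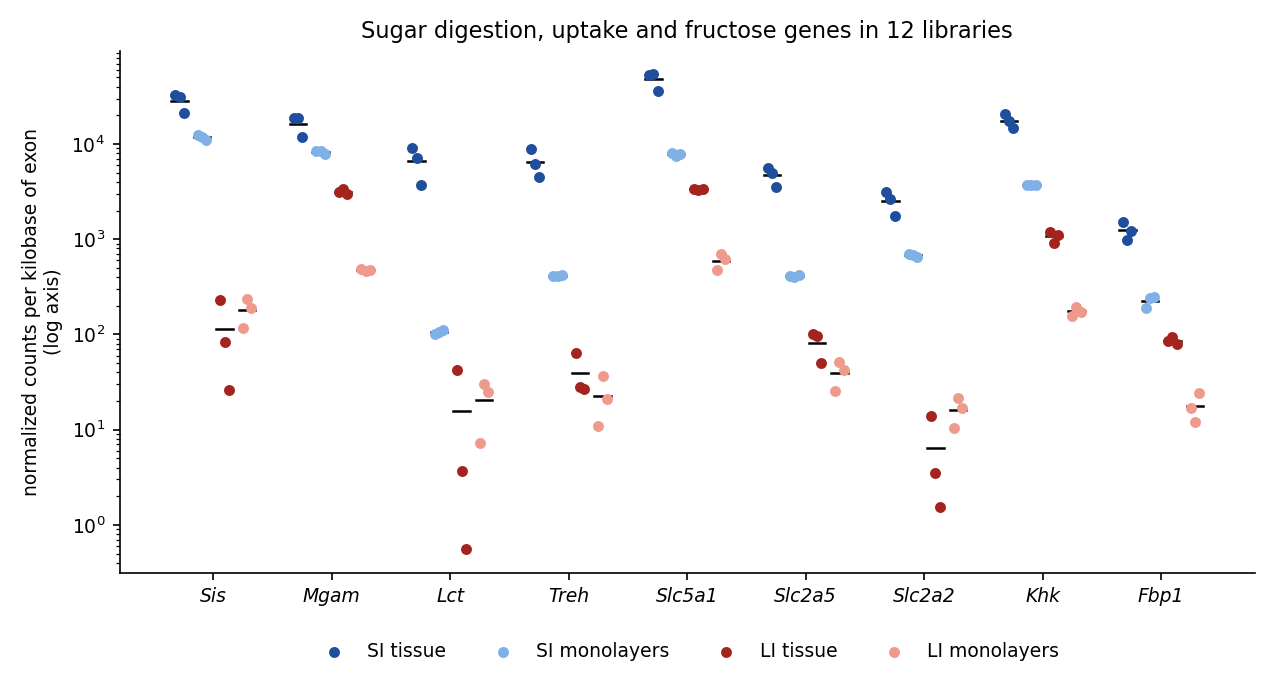
Level of the 9 genes in each of the 12 libraries, in normalized counts per kilobase of exon on a log axis. Points are libraries and black bars are group means of 3 libraries; SI tissue is the highest group for every gene, SI monolayers come next, and the LI groups lie below them, with Lct, Sis and Slc2a2 of LI tissue spread widely.

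After 24 h of culture most of the sugar genes were lower in the small intestine, by very different amounts. Lactase fell most, to 1.52% to 1.68% of the SI tissue mean. Trehalase fell to 6.25% to 6.44% of it and the fructose transporter Slc2a5 to 8.44% to 8.97%, and Khk, Fbp1, Slc5a1 and Slc2a2 fell as well. Sis and Mgam stood apart, with 38.4% to 44.2% and 48.0% to 51.9% of the SI tissue mean left. Of the 9 genes, 7 were called lower in SI monolayers and 0 higher, where 16.4% of all tested genes were called lower and 9.71% higher. By edgeR without adjustment (p under 0.05) and by DESeq2, 0 were higher as well. All 9 were lower without overlap between the libraries, as were 35.7% of tested genes. The median log2 fold change of the 9 was -2.41, against -0.05 over all tested genes. In these bulk libraries, fewer enterocytes and less RNA per enterocyte cannot be told apart.

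Among the glycosidases, lactase, which splits milk sugar, was at 58064, 45444 and 23899 normalized counts in SI tissue libraries 1, 2 and 3 and at 645, 675 and 713 in SI monolayers. Every monolayer library was far below every tissue library, and the log2 fold change was -5.93 ± 0.87 (SE; edgeR adjusted p = 0.00035). Trehalase, which splits the disaccharide of fungi and insects, was at 18153, 12624 and 9303 in SI tissue and at 837, 835 and 860 in SI monolayers. The monolayer libraries were nearly alike and the tissue libraries were not, and Treh fell by 3.95 ± 0.35 on the log2 scale (edgeR adjusted p = 9.64e-06).

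Sucrase-isomaltase, which handles sucrose and the branch points of starch, was at 246167, 230344 and 158049 in SI tissue and at 93507, 87832 and 81309 in SI monolayers. The groups did not overlap, but the difference missed the threshold, with a log2 fold change of -1.24 ± 0.61 (edgeR adjusted p = 0.117). It was called with the 2 SI groups alone in the fit (-1.21, adjusted p = 0.000332) and without LI tissue library 1 (adjusted p = 0.0321) or 3 (adjusted p = 0.0286). Those LI libraries enter the estimate of the spread and not the difference, and Sis was more spread in LI tissue, relative to its mean, than in any other group. Maltase-glucoamylase, which frees glucose from starch fragments, was at 162555, 162286 and 102365 in SI tissue and at 72899, 73891 and 68331 in SI monolayers. Its libraries did not overlap either. With a log2 fold change of -0.95 ± 0.14 (edgeR adjusted p = 0.000148) it passed the p threshold and not the minimum fold. Without SI tissue library 3 it was called, at -1.14 (adjusted p = 3.83e-11).

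SI tissue library 3 was the lowest of its group for 8 of the 9 genes, Fbp1 being the exception, and it was the library with the most Paneth RNA. Each enterocyte marker was lowest there as well. That list summed to 1598680, 1498360 and 1042060 in SI tissue libraries 1, 2 and 3. The part of that library in the results was not tested beyond leaving it out, and the 7 genes called lower were called lower without it as well.

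The transporters all fell. Slc5a1, for the apical sodium-glucose cotransporter, was at 219166, 220478 and 148128 in SI tissue and at 32693, 30897 and 32189 in SI monolayers. The groups lay far apart, at a log2 fold change of -2.58 ± 0.17 (edgeR adjusted p = 2.67e-07). Slc2a5, for the fructose carrier, was at 19130, 16785 and 12162 in SI tissue and at 1408, 1353 and 1438 in SI monolayers, a log2 fold change of -3.48 ± 0.28 (edgeR adjusted p = 4.48e-06). Slc2a2, for the carrier that also serves the basolateral side, was at 18218, 15057 and 10186 in SI tissue and at 4065, 3931 and 3719 in SI monolayers. It kept more of its level than the other carriers, with a log2 fold change of -1.86 ± 0.35 (edgeR adjusted p = 0.00163) and 25.7% to 28.1% of the SI tissue mean.

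Khk and Fbp1 fell to a similar degree. Khk was at 36956, 31433 and 26770 in SI tissue and at 6671, 6593 and 6693 in SI monolayers, a log2 fold change of -2.22 ± 0.12 (edgeR adjusted p = 6.89e-09). Fbp1 was at 2562, 1678 and 2073 in SI tissue and at 321, 413 and 425 in SI monolayers, a log2 fold change of -2.41 ± 0.17 (edgeR adjusted p = 1.44e-08). Neither gene overlapped between the groups. The enterocyte marker list moved in the same direction, with a median log2 fold change of -1.71 and a range from -3.78 upward, and its part in the fall of the sugar genes was not tested.

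**Figure D2:**
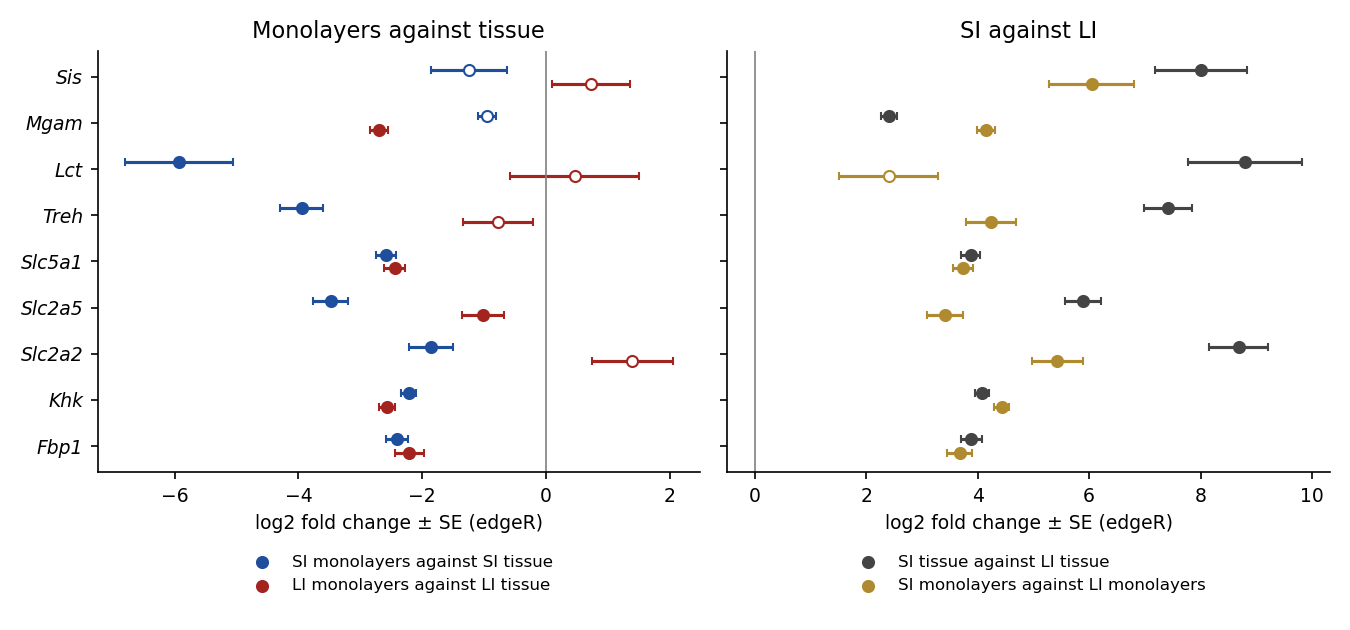
Log2 fold change of each gene with its standard error from edgeR, for monolayers against tissue in each region (left) and for SI against LI in tissue and monolayers (right). Filled points were called and open points were not; the changes in SI spread from -0.95 for Mgam to -5.93 for Lct, while Slc5a1, Khk and Fbp1 lie between -2.58 and -2.21 in both regions.

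The makeup of the glycosidase transcripts differed between SI tissue and SI monolayers. Shares were taken per library from normalized counts per kilobase of exon, over the sum of the 4 enzymes. They are described without a test, because 3 against 3 libraries cannot give an exact permutation p under 0.1. Lactase held 11.1% ± 1.99 (SD, n = 3) in SI tissue and 0.518% ± 0.0545 in SI monolayers, and trehalase held 11.2% ± 1.47 and 2.02% ± 0.143. The starch and sucrose enzymes took up the difference, with Sis at 49.3% ± 2.0 in SI tissue and 57.2% ± 1.11 in SI monolayers and Mgam at 28.4% ± 1.44 and 40.2% ± 0.977. In each SI tissue library Sis was between 3.64 and 5.68 times as abundant as Lct per kilobase, and in SI monolayers between 97.9 and 124 times.

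**Figure D3:**
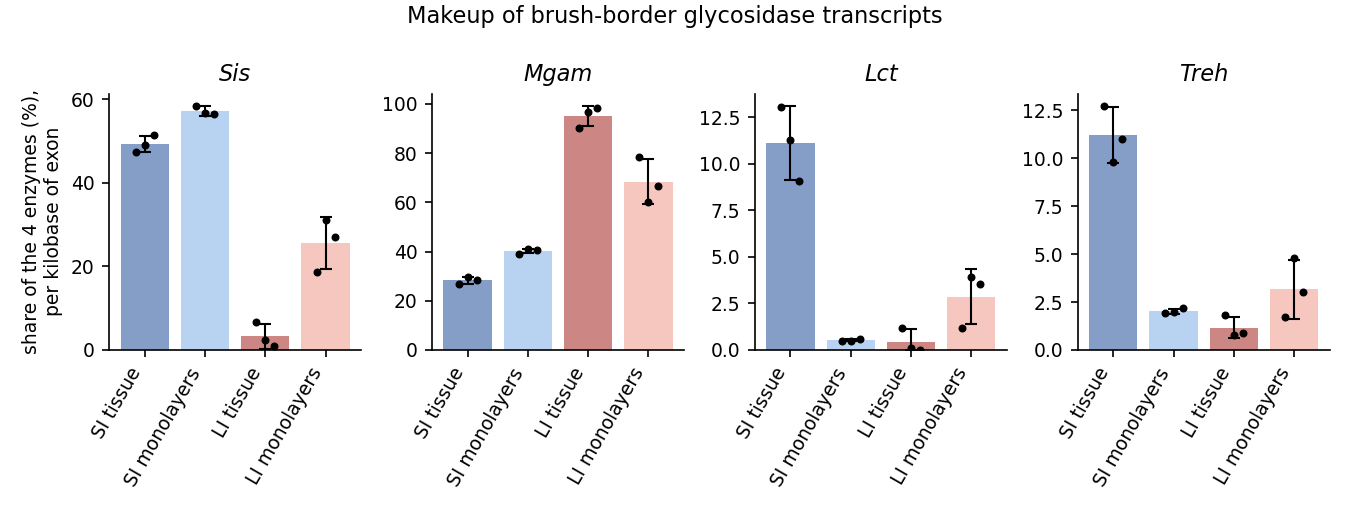
Share of each brush-border glycosidase in the summed level of the 4, in percent of normalized counts per kilobase of exon, with a scale of its own for each gene. Bars are means of 3 libraries, error bars are SD (cut at 0) and points are libraries; Lct and Treh hold 11.1% and 11.2% in SI tissue and 0.518% and 2.02% in SI monolayers, and Mgam holds 95.1% in LI tissue.

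The order of the levels per kilobase changed with culture. In SI tissue Slc5a1 was the highest, at 47740 ± 10087 normalized counts per kilobase (SD, n = 3), followed by Sis at 28339 ± 6294, Khk at 17652 ± 2837 and Mgam at 16361 ± 3984, the last pair overlapping. Lct, Treh and Slc2a5 formed a middle group whose neighbours overlapped, from 6630 ± 2697 to 4711 ± 1042, above Slc2a2 at 2517 ± 703 and Fbp1 at 1236 ± 260. In SI monolayers Sis led at 11730 ± 818, Mgam at 8238 ± 341 and Slc5a1 at 7779 ± 226 overlapped, and Lct was last at 106 ± 5.33.

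The kinases of fructose breakdown gave unequal values. While Khk fell in SI monolayers, Tkfc, for the triose kinase that phosphorylates glyceraldehyde, was at 28505, 22463 and 20246 in SI tissue and at 33838, 32311 and 33421 in SI monolayers. All monolayer libraries were above all tissue libraries, and the log2 fold change of 0.52 ± 0.10 (edgeR adjusted p = 0.000515) was under the minimum fold. The ratio of Khk to Tkfc per kilobase was 3.44 ± 0.137 in SI tissue and 0.515 ± 0.00887 in SI monolayers (SD, n = 3), and in LI 3.62 ± 0.608 and 0.589 ± 0.0396. In both regions the ratios of tissue and monolayer libraries did not overlap, and no test was run on them.

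**Figure D4:**
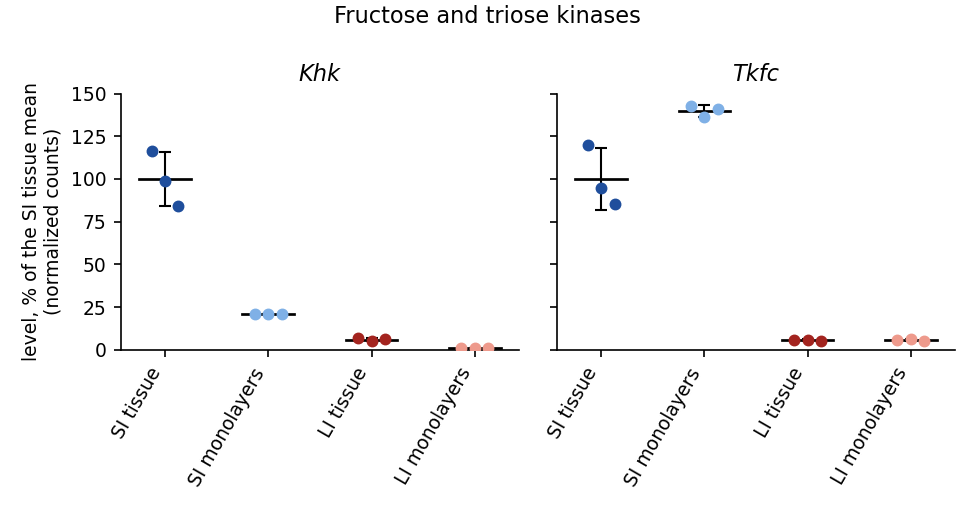
Khk and Tkfc in each library as a percentage of the SI tissue mean of the same gene, from normalized counts. Points are libraries, horizontal bars are means and error bars are SD (n = 3); Khk is at 20.8% to 21.1% in SI monolayers, where Tkfc is at 136% to 143%.

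The rest of the list of fructolysis and polyol enzymes moved in both directions. Of 7 genes, 2 were called higher and 1 lower in SI monolayers, and 3 lower in LI monolayers. Aldoc, a brain-type aldolase, rose from 1442 ± 183 to 2845 ± 33.9 in SI (log2 fold change 1.02 ± 0.08, edgeR adjusted p = 1.44e-08) and fell in LI (-1.89 ± 0.08, edgeR adjusted p = 6.03e-12). Sord, for the sorbitol dehydrogenase that makes fructose from sorbitol, was at 19774 ± 3133 in SI tissue and 10581 ± 178 in SI monolayers, under the minimum fold, and fell in LI (log2 fold change -2.94 ± 0.10, edgeR adjusted p = 5.39e-12).

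Among the 7 other genes of gluconeogenesis, 4 were lower and 1 was higher in SI monolayers, and 4 were lower in LI monolayers. Pck1, for the cytosolic phosphoenolpyruvate carboxykinase, fell from 3652 ± 1258 to 43.2 ± 19.3 in SI (log2 fold change -6.37 ± 0.35, edgeR adjusted p = 2.16e-07) and from 7538 ± 458 to 191 ± 6.62 in LI. Its mitochondrial counterpart Pck2 went the other way in SI, from 2711 ± 183 to 8179 ± 347 (log2 fold change 1.63 ± 0.06, edgeR adjusted p = 5.94e-12), and was not called in LI (-0.55 ± 0.06). Pcx, for pyruvate carboxylase, fell in SI and LI at log2 fold changes of -1.01 ± 0.08 and -2.73 ± 0.09, and Slc37a4, for the glucose phosphate translocase, at -1.10 ± 0.08 and -2.04 ± 0.09. Fbp2, the other fructose bisphosphatase gene, did not share the fall of Fbp1. It was at 20956 ± 2622 in SI tissue and 15198 ± 245 in SI monolayers (-0.43 ± 0.07, not called). In LI it was at 13506 ± 660 and 22132 ± 280 (0.76 ± 0.07, not called).

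Other carriers of sugar did not share 1 direction. Of 11 other facilitative carriers, 2 were higher and 5 lower in SI monolayers, and 1 was higher and 6 lower in LI monolayers. Slc2a1, for the widespread glucose carrier GLUT1, rose from 2531 ± 251 to 19020 ± 184 in SI (log2 fold change 2.94 ± 0.08, edgeR adjusted p = 5.98e-14) and from 10455 ± 1133 to 23736 ± 854 in LI (1.23 ± 0.07, edgeR adjusted p = 2.33e-10). Per kilobase, Slc5a1 was 66.6 ± 16 times as abundant as Slc2a1 in SI tissue and 1.43 ± 0.0412 times in SI monolayers (SD, n = 3). Slc2a7, an intestinal relative of the fructose carrier, fell with the set in SI, from 2375 ± 725 to 182 ± 28.6 (log2 fold change -3.67 ± 0.35, edgeR adjusted p = 8.43e-06), and was at 19.2 ± 14.3 in LI tissue.

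Of 6 tested sodium-sugar cotransporters beside Slc5a1, 4 were lower and 1 was higher in SI monolayers, and 1 was lower in LI monolayers. Slc5a11, for a myo-inositol carrier, fell from 6435 ± 2136 to 822 ± 16.9 in SI (log2 fold change -2.93 ± 0.35, edgeR adjusted p = 7.44e-05), and Slc5a9, for a mannose and glucose carrier, fell in both regions (-1.66 ± 0.10 in SI and -3.41 ± 0.12 in LI). The paralogues Slc5a4a and Slc5a4b gave log2 fold changes of -7.33 ± 0.63 and -1.06 ± 0.39 in SI. Whether reads are shared between these related genes was not checked, so that the split is uncertain. Of the 5 tested glycosidases of other compartments, 1 was lower in SI and 2 were lower in LI. Ganc, for a neutral alpha-glucosidase, fell at -1.24 ± 0.10 and -1.14 ± 0.10, and Gaa, for the lysosomal enzyme, was not called in either region (0.46 ± 0.07 and -0.77 ± 0.07).

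Of 6 genes of the galactose pathway, which handles the other sugar of lactose, 0 passed the threshold with the minimum fold in SI by edgeR or by DESeq2, and 1 was higher and 4 were lower at an unadjusted edgeR p under 0.05. Galm, for the galactose mutarotase, was at -0.81 ± 0.07 and Galk1, for galactokinase, at -0.33 ± 0.06. Of the 6, 3 were lower in LI, among them Galk1 at -1.59 ± 0.07 (edgeR adjusted p = 4.72e-12). Hexokinases split by isoform in SI, where Hk1 and Hk2 rose by log2 fold changes of 1.74 ± 0.05 and 1.74 ± 0.12 and Hkdc1 fell (-1.06 ± 0.32, edgeR adjusted p = 0.0192). In LI, Hk1 (-0.12 ± 0.05) and Hk2 (0.21 ± 0.11) were not called, and Hkdc1 fell as in SI (-1.03 ± 0.35, edgeR adjusted p = 0.0281).

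Among regulators, of 8 tested sugar sensing genes, 2 were lower in SI monolayers and 3 were lower and 1 higher in LI monolayers. Mlxipl, for the carbohydrate response factor ChREBP, was not called (-0.74 ± 0.12 in SI and -0.83 ± 0.13 in LI). Arrdc4, one of its known targets, was at 0.80 ± 0.09 in SI and rose by 1.52 ± 0.09 in LI, and Trpm5, a channel of taste-like tuft cells, fell in both (-3.85 ± 0.16 and -3.39 ± 0.19). Of 12 transcription factors of enterocyte genes, 2 were lower in SI monolayers, namely Klf4, a factor of differentiated and goblet cells (-1.73 ± 0.07, edgeR adjusted p = 1.05e-11), and Creb3l3, a factor of lipid genes (-1.68 ± 0.33, edgeR adjusted p = 0.00192). In LI monolayers 4 of the 12 were lower and 1 was higher, with Klf4 (-3.13 ± 0.08) and Hnf4g, for a nuclear receptor of enterocytes (-1.34 ± 0.07), among those that fell. Gata4, which marks the jejunum, was at 11913 ± 931 in SI tissue and 8858 ± 191 in SI monolayers and was not called (-0.39 ± 0.19, edgeR adjusted p = 0.111).

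In the large intestine the set split in its response to culture. Mgam, Slc5a1, Khk and Fbp1, which were steady between LI tissue libraries, all fell, and Slc2a5 was called lower at the edge of the threshold. Sis, Lct, Treh and Slc2a2, each at 0.978% of its SI tissue mean or less in every LI library, were not called. Of the 9 genes, 5 were called lower in LI monolayers and 0 higher, where 23.5% of all tested genes were called lower and 14.5% higher. With p under 0.05 by edgeR before adjustment, and with DESeq2, again 0 were higher. Those without overlap were 4 of the 9, against 40.0% of tested genes that were lower without overlap. The median log2 fold change of the 9 was -1.01, against -0.05 over all tested genes.

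Mgam was at 27556, 28998 and 26171 in LI tissue and at 4265, 4003 and 4093 in LI monolayers. Both groups were tight and lay far apart, and the log2 fold change was -2.7 ± 0.15 (edgeR adjusted p = 2.41e-08). Slc5a1 was at 13734, 13628 and 13825 in LI tissue and at 1934, 2853 and 2539 in LI monolayers, a log2 fold change of -2.45 ± 0.17 (edgeR adjusted p = 2.63e-07). Its tissue libraries were the closest of any member, and no monolayer library came near them.

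Khk was at 2135, 1650 and 1984 in LI tissue and at 284, 351 and 308 in LI monolayers, a log2 fold change of -2.57 ± 0.13 (edgeR adjusted p = 2.15e-09). Fbp1 was at 145, 160 and 136 in LI tissue and at 28.9, 20.7 and 41.5 in LI monolayers, a log2 fold change of -2.21 ± 0.24 (edgeR adjusted p = 7.94e-07). Neither overlapped between the groups. Tkfc was at 1372 ± 84.8 in LI tissue and 1370 ± 106 in LI monolayers (0.04 ± 0.10, edgeR adjusted p = 0.721), so that of these kinases Khk was called in both regions and Tkfc in neither.

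Slc2a5 was at 342, 327 and 170 in LI tissue and at 86.6, 176 and 143 in LI monolayers. The lowest tissue library lay inside the range of the monolayers. The call at a log2 fold change of -1.01 ± 0.34 (edgeR adjusted p = 0.0254) was lost without LI tissue library 1 (-0.85, adjusted p = 0.082), without LI tissue library 2 (-0.88, adjusted p = 0.082) or without LI monolayer library 1 (-0.84, adjusted p = 0.0646). With the replicate number as a block it was -0.98 (adjusted p = 0.0352), under the minimum fold.

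Sis, Lct and Slc2a2 differed more between LI tissue libraries than between the groups. Sis was at 1723, 623 and 193 in LI tissue libraries 1, 2 and 3 and at 872, 1770 and 1423 in LI monolayers, with overlap and a log2 fold change of 0.73 ± 0.64 (edgeR adjusted p = 0.337). Slc2a2 was at 80.8, 20.1 and 8.93 in LI tissue and at 59.7, 124 and 96.8 in LI monolayers, a log2 fold change of 1.40 ± 0.65 (edgeR adjusted p = 0.0867). LI tissue library 1 was the highest and library 3 the lowest for both genes.

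Lct was at 271, 23.8 and 3.57 in LI tissue, the last being 4 counts as deposited, and at 46.2, 192 and 160 in LI monolayers, a log2 fold change of 0.46 ± 1.04 (edgeR adjusted p = 0.713). Without LI tissue library 1, Sis (1.77, edgeR adjusted p = 0.0167), Lct (3.29, adjusted p = 0.0245) and Slc2a2 (2.7, adjusted p = 0.00482) were all called higher in LI monolayers, so that these 3 calls turn on 1 library. Without LI tissue library 3, Lct was at -0.11 (adjusted p = 0.93). Treh was at 131, 56.7 and 55.3 in LI tissue and at 22.1, 74.6 and 43.5 in LI monolayers, with overlap and a log2 fold change of -0.77 ± 0.57 (edgeR adjusted p = 0.256).

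The order of the LI libraries was shared in part with other genes of small-intestinal cells. Of the 12 enterocyte markers, 9 were highest in LI tissue library 1, 11 were lowest in LI tissue library 3 and, among LI monolayers, 11 were lowest in library 1. Of the 8 Paneth markers, whose cells are absent from normal colon, 4 were highest in LI tissue library 1, 7 were lowest in library 3 and, among LI monolayers, 8 were lowest in library 1. In LI tissue Itln1, Mmp7 and Ang4 were highest in library 2 and Mptx2 in library 3. Ang4 stood apart in LI tissue, at 17.5% to 38.8% of its SI tissue mean. As a percentage of the SI tissue mean, the Paneth markers had medians of 1.02%, 0.873% and 0.361% in LI tissue libraries 1, 2 and 3 and of 0.375%, 0.499% and 0.541% in LI monolayer libraries 1, 2 and 3. Sis was at 0.815%, 0.295% and 0.0912% in the same LI tissue libraries and at 0.412%, 0.837% and 0.673% in the LI monolayers. Slc2a2 was at 0.558%, 0.139% and 0.0616% and then at 0.412%, 0.856% and 0.668%, and Lct followed the same order in both preparations. The part of small-intestinal RNA in the LI values was not tested. In LI tissue Mgam, at 18.4% to 20.4% of the SI tissue mean, and Slc5a1, at 6.96% to 7.06%, did not follow this order and were above every percentage of Sis, Slc2a2 and Lct in LI. In the LI monolayers Slc5a1 was in the same order as Sis, from 0.987% in library 1 to 1.46% in library 2, and Mgam was not, at 2.99%, 2.81% and 2.87% in libraries 1, 2 and 3.

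**Figure D5:**
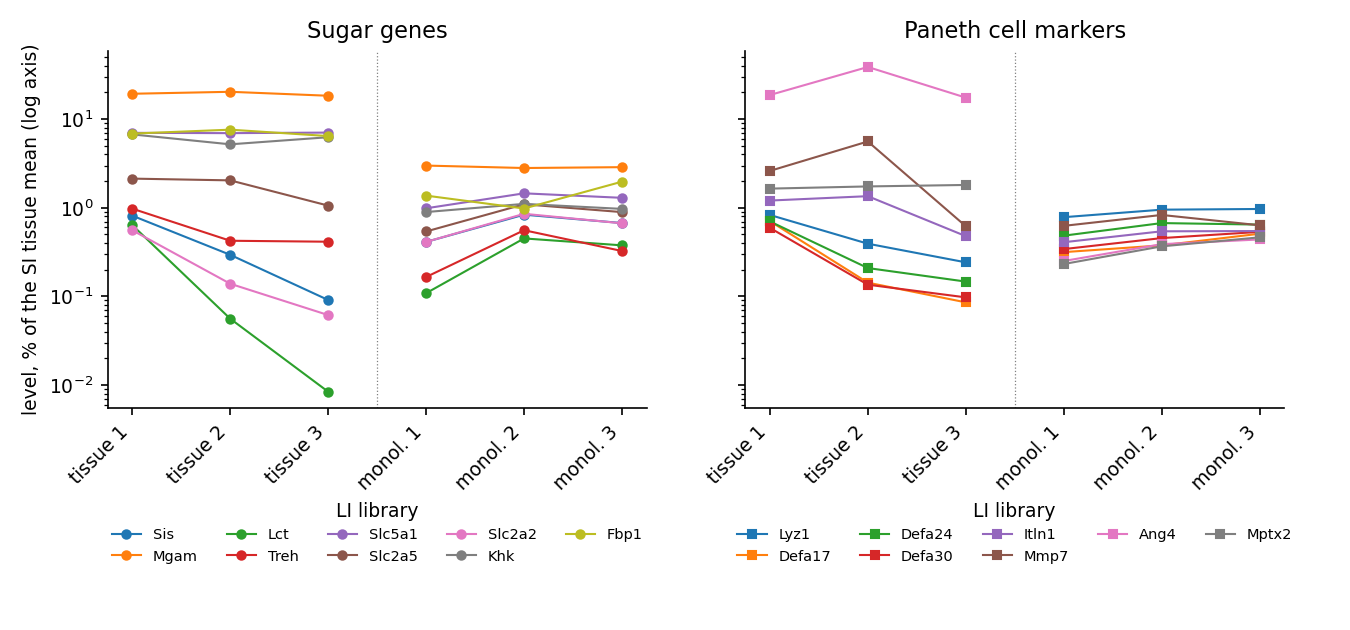
Level in each LI library as a percentage of the SI tissue mean of the same gene, on a log axis, for the 9 sugar genes (left) and 8 Paneth cell markers (right). Lines join the values of 1 gene within a group and stand for no order. Sis, Lct and Slc2a2 descend from tissue library 1 to tissue library 3, as do Lyz1, Defa17, Defa24 and Defa30. Mgam, Slc5a1, Khk and Fbp1 stay level there. Of the other Paneth markers, Itln1, Mmp7 and Ang4 are highest in tissue library 2 and Mptx2 in tissue library 3.

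The 4 genes that stayed level between LI tissue libraries were also those with the highest percentages there. In LI tissue Slc5a1, at 3345 ± 24.0 normalized counts per kilobase, and Mgam, at 3168 ± 162, overlapped at the top, and Khk followed at 1070 ± 138. The other 6 genes lay between 113 ± 106 for Sis and 6.36 ± 6.72 for Slc2a2, each overlapping its neighbour in that order. In LI monolayers Slc5a1 at 595 ± 114 and Mgam at 473 ± 15.3 overlapped again, followed by Sis at 182 ± 60.6 and Khk at 175 ± 18.9. Maltase-glucoamylase made up 95.1% ± 4.16 of glycosidase transcript in LI tissue and 68.4% ± 9.23 in LI monolayers, and Sis 3.29% ± 2.97 and 25.6% ± 6.30. Without LI tissue library 1 the share of Sis in LI tissue was 1.63%.

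Between the regions, every sugar gene was higher in SI tissue than in LI tissue, from Mgam at a log2 fold change of 2.41 ± 0.15 (edgeR adjusted p = 1.33e-07) to Lct at 8.80 ± 1.03 (edgeR adjusted p = 9.23e-05). All 9 were called higher in SI tissue, where 11.6% of tested genes were, and all 9 did so without overlap, as did 29.6% of tested genes. Their median was 5.88, against 0.06 over all tested genes. Slc5a1 (3.87 ± 0.18, edgeR adjusted p = 2.20e-08), Fbp1 (3.88 ± 0.19, edgeR adjusted p = 2.62e-10) and Khk (4.08 ± 0.13, edgeR adjusted p = 7.76e-11) came next. Slc2a5 (5.88 ± 0.32, edgeR adjusted p = 3.68e-07), Treh (7.41 ± 0.43, edgeR adjusted p = 7.02e-07), Sis (8.01 ± 0.83, edgeR adjusted p = 4.11e-05) and Slc2a2 (8.68 ± 0.53, edgeR adjusted p = 1.07e-06) gave larger values. Without LI tissue library 1, Sis was at 9.05, Lct at 11.63 and Slc2a2 at 9.99. The enterocyte markers were higher in SI tissue as well, 12 of 12, with a median of 7.08.

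After 24 h of culture the regional difference was still called for 8 of the 9 genes. All 9 were higher in SI monolayers than in LI monolayers without overlap, as were 30.6% of tested genes, and 8 were called higher, where 12.4% of tested genes were. Their median was 4.15, against 0.02 over all tested genes. Sis gave the largest difference (6.05 ± 0.76, edgeR adjusted p = 0.000157), followed by Slc2a2 (5.43 ± 0.46, edgeR adjusted p = 1.13e-05), and Khk (4.43 ± 0.14, edgeR adjusted p = 6.77e-11). Treh (4.24 ± 0.45, edgeR adjusted p = 5.00e-05), Mgam (4.15 ± 0.16, edgeR adjusted p = 2.90e-09), Slc5a1 (3.74 ± 0.18, edgeR adjusted p = 3.19e-08), Fbp1 (3.68 ± 0.23, edgeR adjusted p = 3.72e-09) and Slc2a5 (3.41 ± 0.32, edgeR adjusted p = 1.85e-05) gave smaller differences, in that order.

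Lct was at 645 to 713 in SI monolayers and at 46.2 to 192 in LI monolayers and missed the threshold (2.40 ± 0.89, edgeR adjusted p = 0.0503). It was called with the 2 monolayer groups alone in the fit (adjusted p = 0.0102), without SI tissue library 3 (adjusted p = 0.0449) and without LI tissue library 1, 2 or 3 (adjusted p = 0.0066, 0.0491 and 0.0289), none of which enters this difference. Of the pathway genes, Tkfc (4.15 ± 0.11 in tissue, 4.63 ± 0.12 in monolayers) and Hkdc1 (5.09 ± 0.38 and 5.06 ± 0.39) were higher in SI in both preparations. Gata4 was too (6.37 ± 0.26 and 5.51 ± 0.25), and so was Hnf4g (3.39 ± 0.07 and 4.01 ± 0.08). Hk1, the general hexokinase, was lower in SI in both (-3.37 ± 0.05 and -1.5 ± 0.05).

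Whether culture changed a gene by the same amount in SI and LI was asked with the interaction, the log2 fold change in SI minus that in LI. For 5 of the 9 genes the changes differed: 1 was called higher, where 11.4% of tested genes were, and 4 lower, where 8.51% were. Mgam lost less in SI than in LI (1.74, edgeR adjusted p = 3.84e-05). Lct (-6.40, edgeR adjusted p = 0.00385), Slc2a2 (-3.25, adjusted p = 0.00609), Treh (-3.17, adjusted p = 0.00529) and Slc2a5 (-2.47, adjusted p = 0.00148) were the 4 called lower. All 4 fell in SI. In LI their log2 fold changes were 0.46, 1.40, -0.77 and -1.01 in the same order, and of these only Slc2a5 was called. Their level in LI tissue was low, with library 1 the highest and library 3 the lowest. Without LI tissue library 1 the interactions of Lct and Slc2a2 were -9.22 and -4.55. Sis did not pass (-1.97, adjusted p = 0.105), though it did without LI tissue library 1 (-3.01, adjusted p = 0.00721) and with DESeq2 (-1.97, adjusted p = 0.0483).

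For the remaining 3 genes no difference between the regions was called: Slc5a1 gave -0.14 (edgeR adjusted p = 0.666), Khk 0.35 (adjusted p = 0.113) and Fbp1 -0.20 (adjusted p = 0.631). These 3 genes fell in both regions, with log2 fold changes between -2.58 and -2.21 in the plot of log2 fold changes. The comparisons share libraries, since each interaction is made of the changes given above.

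Among genes outside the set with at least 10 CPM in a group (10169 genes compared), those whose log2 CPM followed the mean of the 9 most closely over the 12 libraries were Rbp2, for a retinol-binding protein of enterocytes (Pearson r = 0.997), Naaladl1 (0.994), the sugar carrier Slc2a7 (0.993), Efr3b (0.993) and Cda, for cytidine deaminase (0.992). These values describe 12 libraries in 4 groups, with libraries shared between genes, and carry no test. By the same measure, of the glycosidases Sis was closest to Mttp (0.998), Mgam to Plcb3 (0.996), Lct to Enpp7 (0.996) and Treh to Rbp2 (0.995). Of the carriers Slc5a1 was closest to Dpp4 (0.998), Slc2a5 to Gpr155 (0.995) and Slc2a2 to Npc1l1 (0.998), and Khk was closest to Gna11 (0.997) and Fbp1 to Aldh9a1 (0.991). Among the 9 genes the lowest r was that of Mgam with Lct (0.682) and the highest that of Sis with Slc2a2 (0.996).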

How the data were processed

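RNA-seq of 12 mouse libraries in 4 groups of 3 was analysed. The deposited table of counts holds whole numbers per gene, which the authors made from paired-end Illumina HiSeq reads by alignment with STAR (2.7.9a; GRCm38) and counting on GENCODE vM25 genes with featureCounts (2.0.2). The second deposited table holds a normalized signal, for which the authors divided each library's counts by its DESeq2 size factor. The submitters' processing notes list these versions, and 3.13 for DESeq2. Whether both mates or strand were counted is not given in the sources used here; 73.4% to 77.4% of counts from 1 to 20 were even, so that a count need not be 1 fragment. Of 55487 genes, 55227 were named from the gene annotation, and 23186 had no count. Gene positions, gene types and exon lengths were taken from an earlier GENCODE release on GRCm38 than the one used for counting. Normalized values, per kilobase of exon where genes are compared, come from the signal table.

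Tests used edgeR (4.0.16; R 4.3.3) on the deposited counts: filterByExpr (19581 genes), TMM, robust quasi-likelihood fits in 1 model of the 4 group means, and Benjamini-Hochberg adjustment over all tested genes in each of 5 comparisons. The median biological coefficient of variation was 0.126. SE is the log2 fold change divided by the square root of F. P-values measure the spread between libraries, which for pooled wells may be technical. The fit was run on simulated data in which all genes had the same dispersion and only SI monolayers were changed. That setting does not cover genes as widely spread as Sis, Lct and Slc2a2 in LI tissue.

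Alternatives were DESeq2 (1.42.0), RLE and upper quartile scaling, no filter, at least 10 counts in every library, no minimum fold, a fit of just the groups compared, a block on the replicate number, and leaving out each library in turn. Samples with the same replicate number did not deviate together (correlations from -0.0516 to 0.0563), and the main fit did not pair them. A weak effect of a shared mouse would not show in this check, so that pairing is not excluded. Beside the 9 genes, genes were named from fixed lists where called in at least 1 comparison with at least 10 CPM in a group, at most 4 per list by the largest change. Fbp2 was named in addition, as the other fructose bisphosphatase gene. The 9 genes and all lists were chosen with earlier results of these data known.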

Additional observations from a re-analysis of the deposited data

Results flagged for a closer look

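For 5 of the 9 sugar genes the change from tissue to monolayers differed between SI and LI by a test of the difference itself, the interaction term of edgeR with adjustment over all 19581 tested genes. Mgam had an interaction of 1.74 on the log2 scale (adjusted p = 3.84e-05): its log2 fold change was -0.95 in SI monolayers and -2.70 in LI monolayers, with no overlap between tissue and monolayers in either region. Lct had an interaction of -6.40 (adjusted p = 0.00385), Slc2a2 of -3.25 (adjusted p = 0.00609), Treh of -3.17 (adjusted p = 0.00529) and Slc2a5 of -2.47 (adjusted p = 0.00148). All 4 fell in SI, and in LI their tissue and monolayer libraries overlapped. In LI tissue these 4 genes were at most at 342 normalized counts, and each was highest in LI tissue library 1 and lowest in library 3.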

How the results depend on the processing

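Of 886 values of the 9 genes under the alternatives, 861 kept their direction and their side of the threshold, 16 passed it newly, 4 no longer passed and 5 turned sign. The sign turned for Lct in LI without LI tissue library 3 (-0.11; from -0.11 to 3.29 over the libraries left out) and for 2 interactions near 0. These were Slc5a1 without LI monolayer library 2 (0.10) or 3 (0.01), with a range from -0.30 to 0.10, and Fbp1 without SI monolayer library 1 (0.02) or LI monolayer library 3 (0.20), with a range from -0.35 to 0.20. None of the 5 was called in either fit. The number of the 9 genes called ranged over all alternatives from 7 to 8 in SI, 4 to 7 in LI, 8 to 9 in tissue, 8 to 9 in monolayers and 4 to 6 for the interaction. With at least 10 counts in every library, Lct was not tested.

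Over all tested genes, 5110 were called in SI, 7442 in LI, 4446 between tissues, 4159 between monolayers and 3909 for the interaction. With at least 10 counts in every library, which tests fewer genes, 3140, 4797, 2606 and 2442 were called in the 4 pairwise comparisons, and with no minimum fold change 11674, 13445, 10558, 10145 and 9069. With a replicate block, 5017 were called in SI, and Slc2a5 in LI (-0.98) was the call among the 9 genes that was lost. The labels give these samples a shared number and do not say whether they share a mouse.

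Shares of the glycosidases in counts not divided by length were, in SI tissue and SI monolayers, 51.9% and 54.4% for Sis and 34.8% and 44.6% for Mgam. Lct was at 0.423% in SI monolayers, and Treh, the shortest of the 4 transcripts, at 3.24% and 0.526% in SI tissue and monolayers and at 0.280% and 0.807% in LI. Counting error limits Lct and Slc2a2 in LI tissue library 3, at 4 and 10 counts.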
